A study of Mus musculus with 12 samples.

Results

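The B cell identity genes described here are Ms4a1, Cd79b, Cd22, Blk, Btk, Blnk, Pax5 and Pou2af1, chosen by their symbols as 8 of the 770 genes that were counted in 12 A20 tumors. A20 is a B-cell lymphoma line from a Balb/c mouse. It was implanted under the skin of female Balb/c mice and treatment began about 7 days later. The tumors were injected directly with PBS, with SE (a stable emulsion without agonist) or with G100, labelled GLA-SE, which held 10 µg of the synthetic TLR4 agonist GLA in 50 µl of 2% SE. Each group had 4 tumors, each from its own mouse. All were injected every other day for 3 injections and were collected 2 h after the last. The mice were bought as young adults, and the labels do not give their age. RNA came from whole tumors in mice with an intact immune system, and the counts do not separate host B cells from lymphoma cells.

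Ms4a1 encodes CD20, a surface protein of B cells and the target of therapeutic antibodies against B-cell lymphoma. Cd79b encodes the Igβ chain, which with the Igα chain (Cd79a) carries the signal of the B cell receptor into the cell, and Cd22 is a sialic acid binding receptor that dampens it. Blk is a kinase of the Src family, Btk is the kinase blocked by ibrutinib, and Blnk is the adaptor that links the receptor complex to downstream enzymes. Pax5 is the transcription factor that maintains B cell identity, and Pou2af1 is a coactivator that joins the octamer-binding factors on DNA. Btk and Blnk are also known in myeloid cells, and Blk in some dendritic and T cells.

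RefSeq promoter windows (build GRCm38.p6, the 250 bases before the annotated start) were found for 5 of the 8 genes, Cd22, Btk, Blnk, Pax5 and Pou2af1, and not for Ms4a1, Cd79b and Blk. They were searched on both strands for the octamer ATGCAAAT, the sequence to which the partners of Pou2af1 bind, and for its 7-base core TGCAAAT, which lies within it. The octamer was present in 1 window, that of Blnk, and the core in 2, those of Blnk and Pou2af1. Of all 32851 windows of the same length, 1.60% held the octamer and 3.56% the core. The windows of Blnk (chr19:40994222-40994471, minus strand) and Pou2af1 (chr9:51213440-51213689, plus strand) are shown because they carry these matches, with the matched bases in capitals. In Blnk the octamer reads in the opposite orientation, as ATTTGCAT.
Blnk: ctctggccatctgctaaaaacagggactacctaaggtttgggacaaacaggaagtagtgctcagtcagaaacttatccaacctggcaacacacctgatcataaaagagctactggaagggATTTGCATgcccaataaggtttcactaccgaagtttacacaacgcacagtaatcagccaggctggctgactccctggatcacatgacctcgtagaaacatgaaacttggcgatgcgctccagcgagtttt
Pou2af1: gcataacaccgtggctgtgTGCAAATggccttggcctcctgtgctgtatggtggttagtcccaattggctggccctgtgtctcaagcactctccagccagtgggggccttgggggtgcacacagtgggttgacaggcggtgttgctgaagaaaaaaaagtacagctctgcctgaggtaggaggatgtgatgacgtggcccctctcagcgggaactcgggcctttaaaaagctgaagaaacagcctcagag

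Each gene was counted by a barcoded probe on the nCounter mouse PanCancer Immune panel, and a tumor's counts added up to 812522 to 1086462 in PBS, 810260 to 1268512 in SE and 1186487 to 1612415 in G100. Levels are given as normalized counts, which are the deposited counts after each tumor was scaled to 16 reference genes. They compare tumors for the same gene and do not compare genes, whose probes differ. One library stood apart. In SE replicate 4 the geometric mean of the reference genes was 927 counts, against 1501 to 2806 in the other SE tumors, 1972 to 2558 in PBS and 1693 to 1932 in G100. Its summed level of 9 endothelial and fibroblast markers was 120237 normalized counts, and in the other 11 tumors it lay between 3516 and 28096.

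In G100 tumors Ms4a1 and Cd79b were lower than in PBS tumors, and none of the other 6 genes passed the test. A fold change was called at an adjusted p under 0.05 (edgeR's quasi-likelihood test, Benjamini-Hochberg over 750 genes). Of the 8 genes 2 were called, both lower, whereas 68.8% of the 750 genes tested were called, 68.4% higher and 0.4% lower. The lower share is 3 genes, of which the other one was Anp32b (log2 fold change -0.28, adjusted p = 0.0125), named after its values were seen. The median log2 fold change of the 8 genes was -0.07 and that of all tested genes 0.90. In whole tumors, fewer B-lineage cells and less RNA of a gene per cell cannot be told apart.

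**Figure D1:**
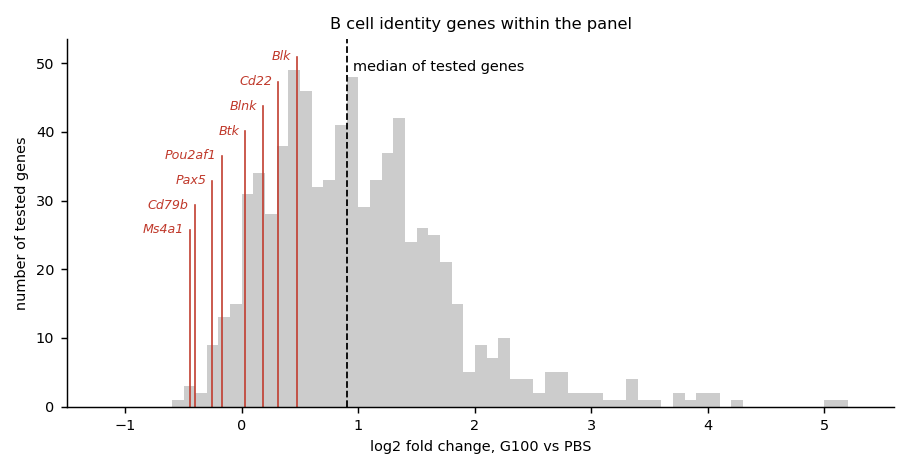
Histogram of the log2 fold change of G100 against PBS for the 750 tested genes (x axis, log2 fold change on the reference gene scale; y axis, number of genes per bin). The red lines mark the 8 B cell identity genes, with heights that only separate the names, and all lie to the left of the dashed median at 0.90.

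Among the surface molecules, the normalized count of Ms4a1 in PBS replicates 1 to 4 was 8044, 10239, 8906 and 8794. In G100 replicates 1 to 4 it was 7693, 6382, 6371 and 6009. In SE replicates 1 to 4 it was 8808, 10292, 7448 and 5140. Every G100 tumor was below every PBS tumor, and the SE tumors spanned both groups. The mean was 8996 ± 913 (SD, n = 4) in PBS and 6614 ± 740 (SD, n = 4) in G100, a log2 fold change of -0.44 (SE 0.11, 95% CI -0.70 to -0.19) with an adjusted p of 0.00781 (edgeR). Among the 750 genes, ordered from the lowest log2 fold change, Ms4a1 was in place 2.

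For Cd79b the normalized counts in PBS replicates 1 to 4 were 6409, 7100.3, 5966 and 6259. In G100 replicates 1 to 4 they were 5435, 4595, 4499 and 4905. In SE replicates 1 to 4 they were 5877, 6610, 4506 and 4219.98. G100 and PBS did not overlap for this gene either, while the SE tumors reached from below every G100 tumor to within the PBS range. The log2 fold change of G100 against PBS was -0.41 (SE 0.096, 95% CI -0.62 to -0.19), with an adjusted p of 0.00637 (edgeR). For Ms4a1 and for Cd79b a two-sided exact permutation test gave p = 0.0286, and no smaller p is possible in groups of this size. After adjustment over the 750 genes the exact p was 0.0441 for both. The G100 and PBS tumors did not overlap for 64.8% of the tested genes, and 1.07% had all G100 tumors below the PBS tumors.

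The normalized count of Cd22 in PBS replicates 1 to 4 was 720.2, 886, 761 and 829. In G100 replicates 1 to 4 it was 928, 999, 1213 and 821. In SE replicates 1 to 4 it was 675, 594, 813 and 1009. G100 replicates 1, 2 and 3 were above every PBS tumor and replicate 4 was within their range, so the groups overlapped. The log2 fold change of G100 against PBS was 0.31 (SE 0.14, 95% CI -0.01 to 0.63) with an adjusted p of 0.0764 (edgeR). When G100 replicate 4 was left out, it was 0.39 with an adjusted p of 0.0362 and Cd22 was called, beside 67.2% of tested genes. Scaling to the panel median or by TMM turned the direction, to -1.01 and -0.62.

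Among the signaling proteins, the normalized count of Blk was 126, 167, 148 and 128 in PBS replicates 1 to 4 and 177, 128, 335 and 152 in G100 replicates 1 to 4. In SE replicates 1 to 4 it was 162, 150.3, 176 and 175. One G100 tumor, replicate 3, was above the rest, and the other G100 tumors lay within or just above the PBS values. The log2 fold change of G100 against PBS was 0.48 (SE 0.31, 95% CI -0.22 to 1.17) with an adjusted p of 0.187, and without G100 replicate 3 it was 0.10.

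Btk acts downstream of the Src family kinases. Its normalized counts were 976 to 1130.3 in PBS, 853 to 1039 in SE and 1009 to 1112 in G100, and the groups overlapped. The log2 fold change of G100 against PBS was 0.03 (95% CI -0.18 to 0.24, adjusted p = 0.786). The adaptor Blnk had 1720.1 to 1907 normalized counts in PBS, 1565 to 2133 in SE and 1842 to 2442 in G100, and a log2 fold change of G100 against PBS of 0.18 (95% CI -0.07 to 0.44, adjusted p = 0.175). G100 replicate 3 had the highest Blnk value of the 12 tumors, as it had for Blk and Cd22.

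For the transcriptional regulators the estimates were below 0 and did not pass the test. Pax5 had 993 to 1146 normalized counts in PBS, 879 to 1288 in SE and 717 to 1085 in G100, and the lowest values were those of G100 replicates 3 and 4. Its log2 fold change of G100 against PBS was -0.25 (95% CI -0.60 to 0.09, adjusted p = 0.165). Pou2af1 had 1433 to 1696 normalized counts in PBS, 781 to 2106 in SE and 1196 to 1743 in G100, and G100 differed from PBS by -0.17 on the log2 scale (95% CI -0.48 to 0.13, adjusted p = 0.271). For Pou2af1 the lowest and the highest of the 12 tumors were both SE tumors, replicates 4 and 2.

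**Figure D2:**
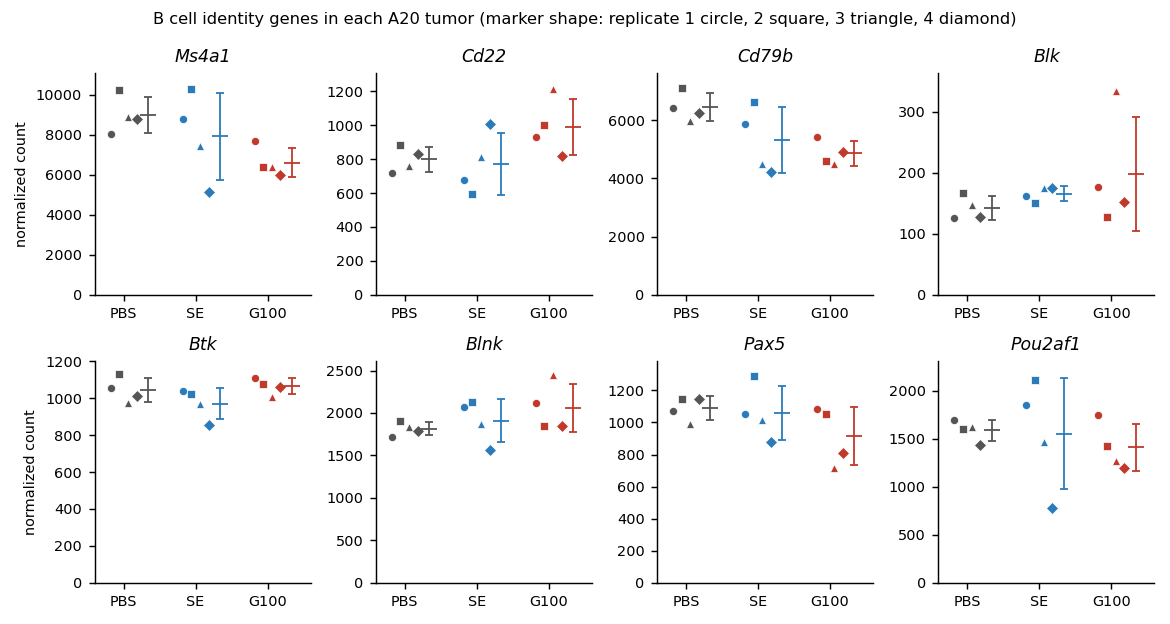
Normalized count (y axis, from 0) of the 8 genes in each of the 12 tumors by group, with the mean and SD of 4 tumors as bars and the marker shape giving the replicate. G100 lies wholly below PBS for Ms4a1 and Cd79b and overlaps it for the other 6 genes.

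The SE tumors asked what the emulsion did without the agonist. Against PBS, 0 of the 8 genes and 0% of the tested genes were called by edgeR. At an unadjusted p under 0.05 there were 0 of the 8 genes, beside 17.9% of those tested, and DESeq2 called 0 of the 8 and 12 of the 750. The log2 fold changes lay between -0.28 for Cd79b (95% CI -0.66 to 0.10, adjusted p = 0.302) and 0.22 for Blk (95% CI -0.30 to 0.75, adjusted p = 0.517). That of Ms4a1 was -0.18 (95% CI -0.67 to 0.30, adjusted p = 0.566). These intervals hold both no change and, for Ms4a1 and Cd79b, the values estimated for G100.

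SE replicate 4 was the lowest SE tumor for Ms4a1, Cd79b, Btk, Blnk, Pax5 and Pou2af1 and the highest for Cd22. The spread within SE was accordingly wide for Pou2af1, with a coefficient of variation of 37.2%, against 6.98% in PBS and 17.2% in G100. Without this tumor the log2 fold change of SE against PBS was -0.02 for Ms4a1 and 0.19 for Pou2af1. Still 0 of the 8 genes were called, beside 0 of the 750 tested.

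G100 differs from SE by the agonist. Of the 8 genes 0 were called, beside 2.13% of the tested genes. Ms4a1 had a log2 fold change of -0.26 (95% CI -0.79 to 0.27, adjusted p = 0.635), Cd79b of -0.13 (adjusted p = 0.800) and Cd22 of 0.36 (95% CI -0.16 to 0.87, adjusted p = 0.461). At an unadjusted p under 0.05 there were also 0 of the 8, beside 18.5% of those tested, and DESeq2 called 0 of the 8 and 80 of the 750. This comparison turned on SE replicate 4. With that tumor left out and the other 11 in one fit, an alternative added after the data were seen, Ms4a1 was lower (log2 fold change -0.42, adjusted p = 0.0364) and Cd22 higher (0.51, adjusted p = 0.0347), beside 35.9% of tested genes called. In the 7 remaining tumors of the pair alone both had an adjusted p of 0.104 and 14% of tested genes were called. The 3 comparisons share tumors in pairs, so their values are not independent.

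**Figure D3:**
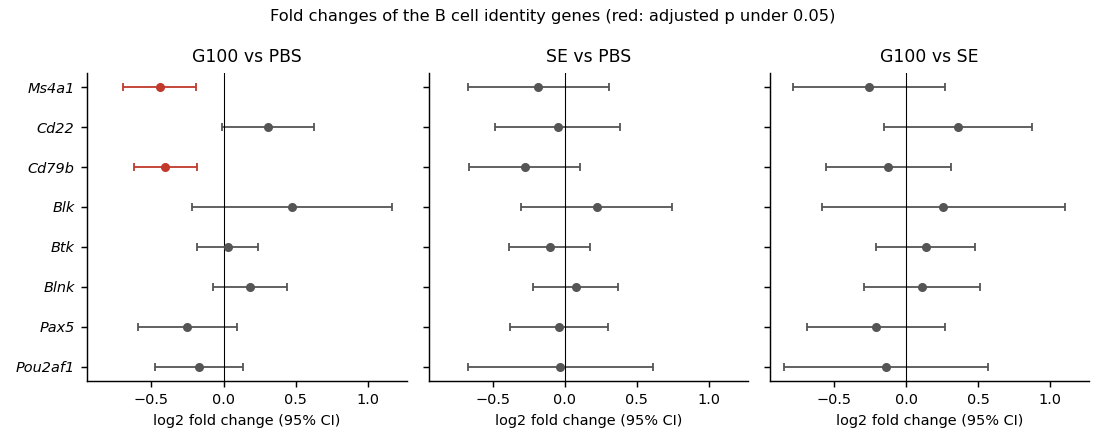
Log2 fold change (x axis) of the 8 genes in the 3 comparisons, with 95% confidence intervals from edgeR and the vertical line at no change. Ms4a1 and Cd79b in G100 against PBS, in red, are the called fold changes, at -0.44 and -0.41.

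The summed normalized count of the 8 genes was examined as a guide to the lymphoma share of each tumor. In PBS replicates 1 to 4 it was 20849, 24174, 21207 and 21395. In G100 replicates 1 to 4 it was 20289, 17502, 17854 and 16796. In SE replicates 1 to 4 it was 21544, 24194, 18264 and 14623. G100 lay below PBS without overlap, with G100 replicate 1 close to PBS replicate 1, and SE ranged from above every G100 tumor to below all of them. The mean was 21907 ± 1529 (SD, n = 4) in PBS, 19656 ± 4141 (SD, n = 4) in SE and 18110.5 ± 1518 (SD, n = 4) in G100, and the ratio of the means was 0.827 for G100 to PBS and 0.897 for SE to PBS.

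Ms4a1 and Cd79b together made up 60.9% to 71.7% of this sum, and Blk 0.598% to 1.87%. The sum of the other 6 genes, a measure added after the data were seen, was 6477 ± 240.3 (SD, n = 4) in PBS, 6431 ± 876 (SD, n = 4) in SE and 6638 ± 571 (SD, n = 4) in G100, and the groups overlapped. With equal weight for each gene, the mean log2 normalized count was 10.52 in PBS, 10.44 in SE and 10.47 in G100, also with overlap. Without Ms4a1 and Cd79b the ratio of the G100 to the PBS mean was 1.02.

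As a share of the deposited counts of all tested genes, the 8 genes took 2.92%, 3.79%, 3.17% and 3.07% in PBS replicates 1 to 4. They took 1.86%, 1.46%, 1.10% and 1.55% in G100 and 2.99%, 3.39%, 1.74% and 0.955% in SE, in the same order. Every G100 tumor was below every PBS tumor, and SE replicates 1 and 2 were within the PBS range while replicates 3 and 4 were below it. This share also falls when other genes rise. The summed level of 11 monocyte and macrophage markers was 32749 to 41365 in PBS and 93086 to 135455 in G100, and it was 27959 and 34363 in SE replicates 1 and 2 but 83558 and 120253 in replicates 3 and 4.

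**Figure D4:**
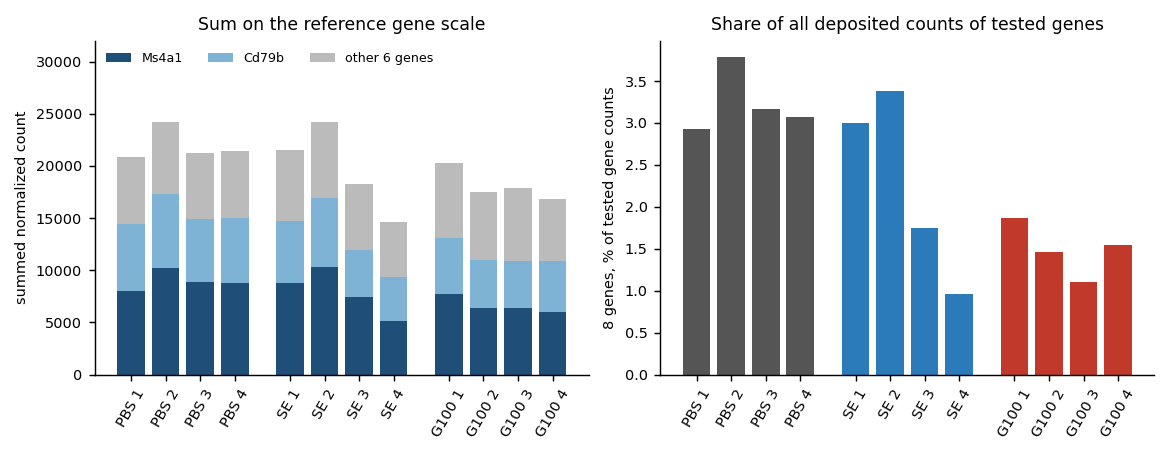
Left, the summed normalized count of the 8 genes in each tumor, with the parts from Ms4a1, Cd79b and the other 6 genes stacked. Right, the same 8 genes as a percentage of the deposited counts of tested genes, where the 4 G100 tumors lie between 1.10% and 1.86% and the PBS tumors between 2.92% and 3.79%.

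Markers of other cells were counted in the same contrast. In G100 against PBS, 11 of 11 monocyte and macrophage markers, 9 of 9 endothelial and fibroblast markers, 5 of 7 neutrophil markers, 3 of 5 NK cell markers and 6 of 11 T cell markers rose, none fell, and the median log2 fold changes of these lists were 1.61, 0.98, 2.27, 1.32 and 0.81. Of all tested genes 68.4% were called higher, with a median of 0.90. The called share of the NK and T cell lists was below that of the panel and that of the neutrophil list near it, and the T cell median was below the panel median. The summed levels in G100 and PBS were 18166 to 26603 and 4101 to 9253 for endothelium and fibroblasts, 1240.4 to 11591 and 254 to 297 for neutrophils, 1233 to 1483 and 267 to 935 for NK cells, and 2751 to 3849 and 993 to 2751 for T cells. No marker was at 0 counts in any tumor. Among them Fcgr1, the high-affinity IgG receptor of macrophages, rose by a log2 fold change of 2.62 (adjusted p = 0.000154, edgeR) and Col1a1, a collagen chain made by fibroblasts, by 1.70 (adjusted p = 0.000428, edgeR). The part of these cells in the levels of Ms4a1, Cd79b and the other members was not tested.

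Ratios between the 8 genes within a tumor do not depend on scaling. Each gene was set against the geometric mean of the other 7, as a log2 ratio of probe counts that compares tumors and not amounts of RNA. For Ms4a1 the ratio was 2.87 to 3.06 in PBS and 2.38 to 2.66 in G100. For Cd79b it was 2.36 to 2.50 in PBS and 1.81 to 2.22 in G100. Both were lower in G100 without overlap, by 0.45 and 0.40 in the mean.

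For Cd22 the ratio was -1.11 to -0.90 in PBS and -0.83 to -0.35 in G100, higher in G100 without overlap. For Blnk it was 0.29 to 0.42 in PBS and 0.51 to 0.80 in G100, also without overlap. The ratios of Blk, Btk, Pax5 and Pou2af1 overlapped between these groups. The 8 log2 ratios of a tumor sum to 0 by construction, so lower ratios of Ms4a1 and Cd79b raise those of the other genes. Taken gene by gene, Blnk differed without overlap in its ratios to Ms4a1 and Cd79b and overlapped in its ratios to the other 5 genes, and Cd22 differed without overlap in its ratios to Ms4a1, Cd79b and Pax5. In SE the ratio of Blnk was 0.48 to 0.55, above PBS without overlap, and those of the other 7 genes overlapped with PBS. For ratios to the other 7 genes no share over all tested genes was calculated, so these overlaps have no background to set them against.

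Of the 28 pairs of these genes, 10 had count ratios that did not overlap between G100 and PBS, beside 34.9% of all 280875 pairs of tested genes, a share near that of the members. Of these 10 pairs 8 involved Ms4a1 or Cd79b, and the other 2 were Cd22 to Pax5 and Btk to Pax5. For SE and PBS it was 1 of 28, beside 5.81% of all pairs, and for G100 and SE 1 of 28, beside 13.1%. The pairs share genes and are not independent. The ratio of Ms4a1 to Cd22 was 10.6 to 11.7 in PBS and 5.25 to 8.29 in G100, and that of Cd79b to Btk was 6.05 to 6.28 in PBS and 4.26 to 4.89 in G100. The pair between SE and PBS was Cd79b to Blnk, at 3.25 to 3.73 in PBS and 2.41 to 3.10 in SE. That between G100 and SE was Btk to Pax5, at 0.793 to 0.987 in SE and 1.02 to 1.41 in G100.

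**Figure D5:**
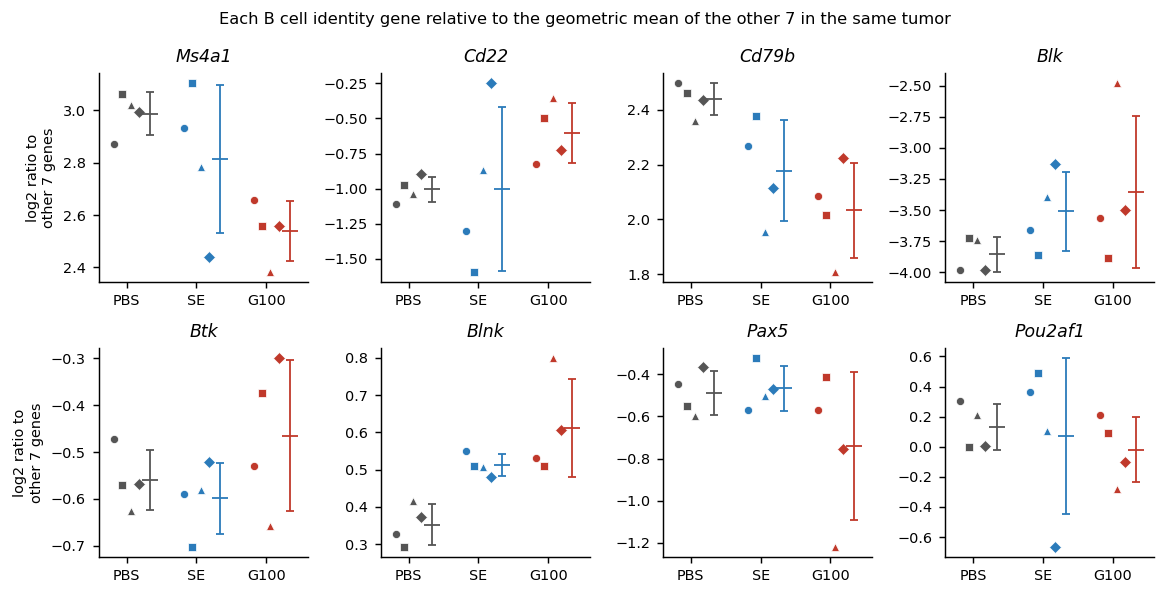
Log2 ratio (y axis) of each gene to the geometric mean of the other 7 in the same tumor, by group, with the mean and SD of 4 tumors as bars. G100 lies below PBS for Ms4a1 and Cd79b and above it for Cd22 and Blnk.

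Cd79a, the partner chain of Cd79b, had 94.8 to 111 normalized counts in PBS, 82.7 to 117 in SE and 73.6 to 107 in G100. Its log2 fold change of G100 against PBS was -0.22 (adjusted p = 0.339) and did not pass the test.

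How many of the 8 genes were called in G100 against PBS varied with the scaling. Scaling to the panel median called all 8 lower, beside 49.1% of tested genes called and 40.9% called lower. TMM called 7 lower, beside 42.1% called and 22.4% lower, and DESeq2 with its own size factors called 7 lower, beside 46.1% called and 20.4% lower. These scalings take the middle of the panel as fixed, and in them Cd22, Blk, Btk and Blnk had negative log2 fold changes in place of positive ones. With all 12 tumors in one fit on the reference gene scale, 0 of the 8 passed (Ms4a1 adjusted p = 0.0860, Cd79b 0.0585), beside 34% of tested genes. With SE replicate 4 left out of that fit, Ms4a1 (adjusted p = 0.0145) and Cd79b (0.0195) passed, beside 61.3%. With the replicate number as a block both were called, beside 58.5%.

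With each group's mean subtracted, Ms4a1, Cd79b, Btk, Pax5 and Pou2af1 were positively correlated with each other over the 12 tumors. Blnk was also positively correlated with each of these 5 genes, from 0.13 with Pax5 to 0.75 with Ms4a1. Cd22 and Blk had negative correlations with the same 5. The median Pearson correlation of log2 levels over the 12 tumors was 0.30 for the 28 pairs of members and 0.61 for all pairs of tested genes, and after each group's mean was subtracted it was 0.56 and 0.54. With the group means subtracted, the 10 pairs among Ms4a1, Cd79b, Btk, Pax5 and Pou2af1, a set picked after the values were seen, had correlations of 0.68 to 0.92, the highest between Ms4a1 and Pou2af1. Those of Blk with these 5 genes were -0.59 to -0.04, and that of Blk with Cd22 was 0.57. Each tumor has 1 scaling factor for all genes, which enters every such correlation. All of them include SE replicate 4, the lowest SE tumor for these 5 genes and the highest for Cd22. The pattern was not seen in every group. In PBS, Ms4a1 was highest in replicate 2 (10239 normalized counts) and Pou2af1 in replicate 1 (1696). Cd22 was the member least like the others, with a median correlation of -0.64 with them over 12 tumors and -0.60 after the group means were subtracted.

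Among the tested genes most like the mean log2 level of the 8 over the 12 tumors were Cyfip2 (r = 0.80), Cd79a (0.79), Ltb (0.73), which encodes lymphotoxin β, and Mef2c (0.72), a transcription factor. After the group means were subtracted they included St6gal1 (0.91), the enzyme that makes the glycan ligands of Cd22, Ticam2 (0.89), an adaptor of TLR4, Cyfip2 (0.87) and Bcl2l1 (0.87). All pairs of tested genes had a median of 0.61 before and 0.54 after that subtraction. These correlations include SE replicate 4, which had the lowest mean log2 level of the 12 tumors (10.19).

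Other genes of the B lineage were counted from 3 lists of 39 genes, none of them a member. In G100 against PBS, 24 of the 39 rose and 0 fell, a smaller share than the 68.4% of all tested genes called higher. The median log2 fold change of the 39 was 0.45, beside 0.90 over all tested genes. Among surface and survival receptors 10 of 15 rose, with the largest changes in Cd38, an ectoenzyme that is also found on myeloid cells (225 ± 62.2 normalized counts in PBS and 1639 ± 879 in G100, SD, n = 4, log2 fold change 2.87, adjusted p = 0.000428, edgeR), Tnfrsf17, the plasma cell receptor BCMA (1.89), and Cd83, an activation marker of B cells and dendritic cells (1.41). Tnfrsf17 was near the lower end of detection, with a mean of 8.59 normalized counts in PBS and 32.0 in G100.

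Among B cell receptor signaling genes 9 of 12 rose, near the 68.4% of the panel, led by Fcgr2b, the inhibitory IgG receptor (log2 fold change 1.55), and the kinases Syk (0.98) and Lyn (0.86), all of which myeloid cells also express. Among transcription factors and maturation genes 5 of 12 rose, below that share, led by Prdm1, the regulator of plasma cell differentiation (77.9 ± 10.5 normalized counts in PBS and 316 ± 101 in G100, SD, n = 4, log2 fold change 2.02), Irf4 (1.72) and Irf8 (0.92). In this last list, Rag1 with 4 to 23 deposited counts and Igll1 with 12 to 22 were near the lower end of detection. The 3 lists had 0 calls by edgeR in SE against PBS and in G100 against SE, where the whole panel had 0 and 16. Their genes are shared with myeloid cells to differing degrees, and how much of each change came from B-lineage cells was not tested.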

How the data were processed

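RNA from 12 tumors was hybridized to the nCounter panel, and groups came from the sample labels. The authors deposited whole-number counts per gene. The methods name normalization in nSolver, but the deposited counts differ in total and in their reference genes, and were therefore taken as raw. No genome build applies to counts. Of 20 reference genes, geNorm over all 12 tumors kept 16. Each tumor was scaled to their geometric mean and the other 750 genes were tested with edgeR 4.0.16 (R 4.3.3), pair by pair on 8 tumors, without a count filter, with Benjamini-Hochberg adjustment at 0.05. Exact permutation tests used the 70 assignments of 4 tumors against 4. Alternatives were reference genes chosen within each pair, all 20 reference genes, panel median, TMM, a filter of 20 counts in 4 of 8 tumors, all 12 tumors in one fit, a replicate block, DESeq2 1.42.0, limma 3.58.1 on log2 values with a pseudocount of 1, and leaving out each tumor. Named genes were the 8 members, Cd79a, up to 3 called genes of a list with the largest change, and the 5 genes most correlated with the members. Some genes that this rule picks, and 1 planned scaling, are not reported here. Members and lists were chosen with earlier results of these data known. Figures were drawn with matplotlib 3.10.9.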

Additional observations from a re-analysis of the deposited data

Results flagged for a closer look

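Within the PBS group, the summed normalized count of the 8 genes was 24174 in replicate 2, and the other 3 tumors lay between 20849 and 21395. The gap was 0.836 of the range of the group, above the critical value for 4 values. This was 1 of 54 groups of values searched, and chance gives about 1 in 20. Without this tumor the sum still lay lower in G100.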

How the results depend on the processing

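Ms4a1 and Cd79b kept a negative log2 fold change for G100 against PBS in all 18 alternatives reported, from -1.74 to -0.38 and from -1.68 to -0.35, and passed the threshold in 17 of them. The exception was all 12 tumors in one fit, where 0 members were called (Ms4a1 adjusted p = 0.0860, Cd79b 0.0585, with 255 genes called against 516). With SE replicate 4 left out of that fit, a choice made after seeing the data, both passed (0.0145 and 0.0195). The number of members called was 8 with panel median scaling, 7 with TMM and 7 with DESeq2, and 2 to 3 when each tumor was left out. Without SE replicate 4 in one fit, 2 were called for G100 against SE. The median log2 fold change of all tested genes for G100 against PBS was 0.90 in the main scaling and 0.82 with all 20 reference genes. It was -0.40 with the panel median, -0.01 with TMM and 0.05 with DESeq2. The calls split into 513 higher and 3 lower in the main scaling, and 475 and 8 with all 20 reference genes. They were 61 higher and 307 lower with the panel median, 148 and 168 with TMM, and 193 and 153 with DESeq2.

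The log2 difference of the summed level for G100 against PBS was -1.57 with the panel median, -1.19 with TMM, -0.053 as a mean of log2 values and 0.032 without Ms4a1 and Cd79b. It was -0.69 and -0.63 (panel median, TMM) for SE against PBS and -0.87 and -0.52 for G100 against SE. When each tumor was left out it ranged from -0.33 to -0.23, from -0.29 to -0.045 and from -0.23 to 0.012 in the 3 comparisons.

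Directions turned for genes that were not called in the main scaling. For G100 against PBS, panel median scaling called Cd22, Blk, Btk and Blnk lower, and TMM and DESeq2 called Cd22, Btk and Blnk lower. In the other comparisons these settings called no member. For G100 against PBS under the panel median, TMM and DESeq2, the log2 fold changes became -1.01, -0.62 and -0.56 for Cd22, -0.89, -0.49 and -0.43 for Blk, -1.25, -0.87 and -0.81 for Btk, and -1.13, -0.74 and -0.68 for Blnk, and that of Btk was -0.05 with all reference genes and -0.0021 without PBS replicate 3 (range 0.069 to -0.0021 over left-out tumors). For G100 against SE under the same 3 settings they became -0.50, -0.074 and -0.15 for Cd22, -0.74, -0.27 and -0.37 for Blk, -0.87, -0.40 and -0.49 for Btk, and -0.95, -0.47 and -0.56 for Blnk. For SE against PBS they became -0.16, -0.19 and -0.12 for Blk and -0.17, -0.24 and -0.17 for Blnk. Leaving out tumors turned Cd22 in SE against PBS (0.0047 without PBS replicate 2, 0.011 and 0.059 without SE replicates 1 and 2, range -0.20 to 0.059), Pax5 (0.037 without SE replicate 4, in the pair and in one fit, range -0.15 to 0.037), Pou2af1 (0.19 likewise, 0.0013 without PBS replicate 1, range -0.21 to 0.19, and in G100 against SE 0.043 without SE replicate 2, range -0.36 to 0.043) and Blk in G100 against SE (-0.12 without G100 replicate 3, range -0.12 to 0.42). The cause was not tested.

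Tumors with the same replicate number did not deviate together (correlations -0.25 to 0.18), so the numbers were not taken as pairs. With the replicate number as a block the members called were 2, 0 and 0, as without it, and 439, 0 and 0 genes were called in the 3 comparisons. Precision was limited by 4 tumors per group, and p-values measure the spread between mice within 1 experiment.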
